A study of Homo sapiens with 2 samples.

Results

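Collagens are the triple-helical proteins of the extracellular matrix, and fibroblasts are their main makers. The 44 collagen genes studied here are those that code for the alpha chains of types I to XXVIII. All 44 were found by symbol in the RefSeq annotation of GRCh38, patch 14, among 19974 protein-coding genes on chromosomes 1 to 22 and X. They were set out as 11 fibrillar genes, 9 genes of basement membranes and 24 others. Binding of JUNB was mapped by CUT&RUN, in which an antibody guides a nuclease to the protein on chromatin and the fragments cut loose are sequenced. The cells were IMR-90 human lung fibroblasts, and the antibody was raised against JUNB. There was 1 library from cells with no treatment and 1 from cells given etoposide, which traps topoisomerase II on cut DNA and drives cultured fibroblasts into senescence. The dose and the time of treatment are not given in the sources used here, and no control with another antibody was used here. With 1 library per condition there is no replicate check, and every difference between the conditions describes these 2 libraries.

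JUNB pairs with FOS-family proteins to form AP-1, which binds the palindrome TGANTCA, very often at enhancers far from gene starts. In fibroblasts AP-1 is known for its part in matrix turnover, since it acts on matrix-degrading enzymes and on matrix genes alike. Collagen chains assemble in threes: fibrillar chains pack into the cross-striated fibres of skin, tendon and bone, type IV chains form the sheet-like network under epithelia and endothelia, and the other classes decorate fibres, span cell membranes or build finer filaments.

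A peak was assigned to a gene when its summit, the position of highest signal, lay in the gene or up to 10 kb from either end. Strength is given as fragments, the count of sequenced pieces that cover the summit, which was worked out from the authors' deposited fold and p. These counts were not scaled for the sequencing depth of each library. The lists held 32550 untreated and 25739 etoposide peaks on these chromosomes, with medians of 15 and 13 fragments. Peak lists do not give expression, so neither the cell type label nor the level of any collagen was checked.

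Sequences just before collagen gene starts are shown first, because almost no JUNB peak lay there. The 4 below are the interval between the divergent starts of COL4A1 and COL4A2, at chr13:110307158-110307283 on the plus strand, and the 250 bases before the starts of COL7A1 (chr3:48595330-48595579, minus strand), COL13A1 (chr10:69801656-69801905, plus strand) and COL15A1 (chr9:98943657-98943906, plus strand). They are from RefSeq, GRCh38.p14, written 5′ to 3′, with capitals for the GC box GGGCGG and the CCAAT box on either strand.
COL4A1 to COL4A2: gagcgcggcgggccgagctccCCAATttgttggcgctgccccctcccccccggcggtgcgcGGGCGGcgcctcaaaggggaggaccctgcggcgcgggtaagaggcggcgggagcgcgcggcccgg
COL7A1: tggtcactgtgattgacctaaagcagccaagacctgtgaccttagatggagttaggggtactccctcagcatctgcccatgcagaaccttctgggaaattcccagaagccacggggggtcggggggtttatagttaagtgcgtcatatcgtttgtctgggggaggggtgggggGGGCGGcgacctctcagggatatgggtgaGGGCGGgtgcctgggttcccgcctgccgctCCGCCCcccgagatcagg
COL13A1: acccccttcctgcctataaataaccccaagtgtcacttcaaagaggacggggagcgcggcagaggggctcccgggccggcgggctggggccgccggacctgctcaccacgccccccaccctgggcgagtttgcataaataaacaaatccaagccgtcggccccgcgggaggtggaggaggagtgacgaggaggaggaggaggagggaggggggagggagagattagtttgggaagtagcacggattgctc
COL15A1: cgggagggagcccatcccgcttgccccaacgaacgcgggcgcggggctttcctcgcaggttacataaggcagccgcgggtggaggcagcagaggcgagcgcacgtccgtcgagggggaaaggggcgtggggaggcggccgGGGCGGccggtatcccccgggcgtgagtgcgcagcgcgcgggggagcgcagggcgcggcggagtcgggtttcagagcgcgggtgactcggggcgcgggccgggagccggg

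A promoter window, from 250 bases before to 50 after the start, was given for 32 of the 44 genes. The AP-1 palindrome TGANTCA was in 0 of these 32 windows and in 5.76% of the 15812 windows of all genes. The related site TGACGTCA was likewise in 0 of 32 and in 2.59% of all. The GC box was in 18 of 32 (58.5% of all) and the CCAAT box in 10 of 32 (36.3% of all). Both strands were searched, and the last letters of a CCAAT box on the other strand, ATTGG, can be the first of a GC box. An absent motif says only that these letters are not in this window. Of the 32 windows, an untreated peak touched 1, that of COL13A1, and an etoposide peak touched 0; over all genes 11.4% and 3.13% were touched.

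Summits close to collagen gene starts were too few to set apart from the share of all genes. A summit lay within 1 kb of the given start in 2 of 32 genes in the untreated library, COL7A1 and COL13A1. The 95% Wilson interval was 1.73% to 20.1%, and 15.8% of all genes had a summit there. In the etoposide library it was 1 of 32, COL7A1 (0.554% to 15.7%), where 5.63% of all genes had a summit there. COL7A1 codes for the chain of the anchoring fibrils that tie the basement membrane to the dermis. Its peak there was shared, with the summit 0.520 kb before the start in the untreated library (19 fragments) and 0.480 kb before it in the etoposide library (11 fragments). A stronger untreated peak, with 23 fragments and no counterpart, lay 3.27 kb before the start, nearest to UQCRC1. The COL13A1 peak, 0.106 kb past the start with 11 fragments, was listed for the untreated library alone. COL13A1 makes a transmembrane collagen of cell junctions.

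For the other 12 genes no start was given, and a summit within 1 kb of either end of the gene was counted. There were 3 such genes in the untreated library (COL5A2, COL6A1 and COL14A1), where 12.2% of all genes of this kind had a summit there, and 2 in the etoposide library (COL6A1 and COL14A1), where 5.29% did. COL6A1, a chain of the beaded filaments of type VI collagen, had a shared peak just before its low-coordinate end, 0.392 kb away with 20 fragments without treatment and 0.342 kb away with 7 fragments in the etoposide library. The median distance from a given collagen gene start to the nearest summit anywhere was 27.1 kb in the untreated library (0.106 to 436 kb) and 37.8 kb in the etoposide library (0.480 to 388 kb). For the other 15780 genes it was 27.0 and 44.4 kb.

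Taken over the whole window, 31 of the 44 collagen genes had an untreated summit and 27 had an etoposide summit. Of all protein-coding genes 49.6% and 38.9% did. Collagen genes are long, and long genes hold more summits by length alone. Each was therefore set beside the 200 protein-coding genes nearest to it in length, collagens left out. Among those, the shares with a summit added up to 30.5 genes without treatment and 27.0 in the etoposide library. The number of collagen genes with JUNB nearby was thus close to that of other genes of their length in both libraries. With the 10000 strongest peaks alone it was 22 beside 17.9 untreated and 18 beside 17.3 etoposide.

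The number of summits was 132 without treatment and 112 in the etoposide library, a ratio of 0.848 (0.660 to 1.09, the 95% Wilson interval of the share turned into a ratio, covering counting error only). Genes of similar length held 118.4 and 90.2 on average. They too held fewer in the etoposide library, whose whole list was shorter, 25739 peaks against 32550. Without COL5A2, the other 43 genes had 112 summits where similar-length genes had 112.7, and 90 where they had 85.7. With the 10000 strongest peaks of each library alone, the 44 genes had 61 untreated summits beside 35.7 and 43 etoposide summits beside 33.7, of which COL5A2 held 11 and 8. Among these strongest peaks the untreated surplus was thus spread over more genes. More summits than the median of similar-length genes were found at 21 genes in either library (35.7% of all genes exceeded their own median without treatment and 31.1% in the etoposide library). Among the similar-length genes themselves this corresponds to 17.9 genes for each library. Fewer than that median were found at 18 genes untreated (19% of all genes) and 13 etoposide (11.4% of all genes), beside 17.6 and 12.5 among the similar-length genes. More summits than 90% or more of similar-length genes were found at 5 of the 44 genes in each library. The genes with the most summits are named below from these same counts, so their high shares are descriptions only. Inside the annotated gene span lay 115 of 132 untreated and 100 of 112 etoposide summits. Among them were summits of COL21A1 that lie before its given start.

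**Figure D1:**
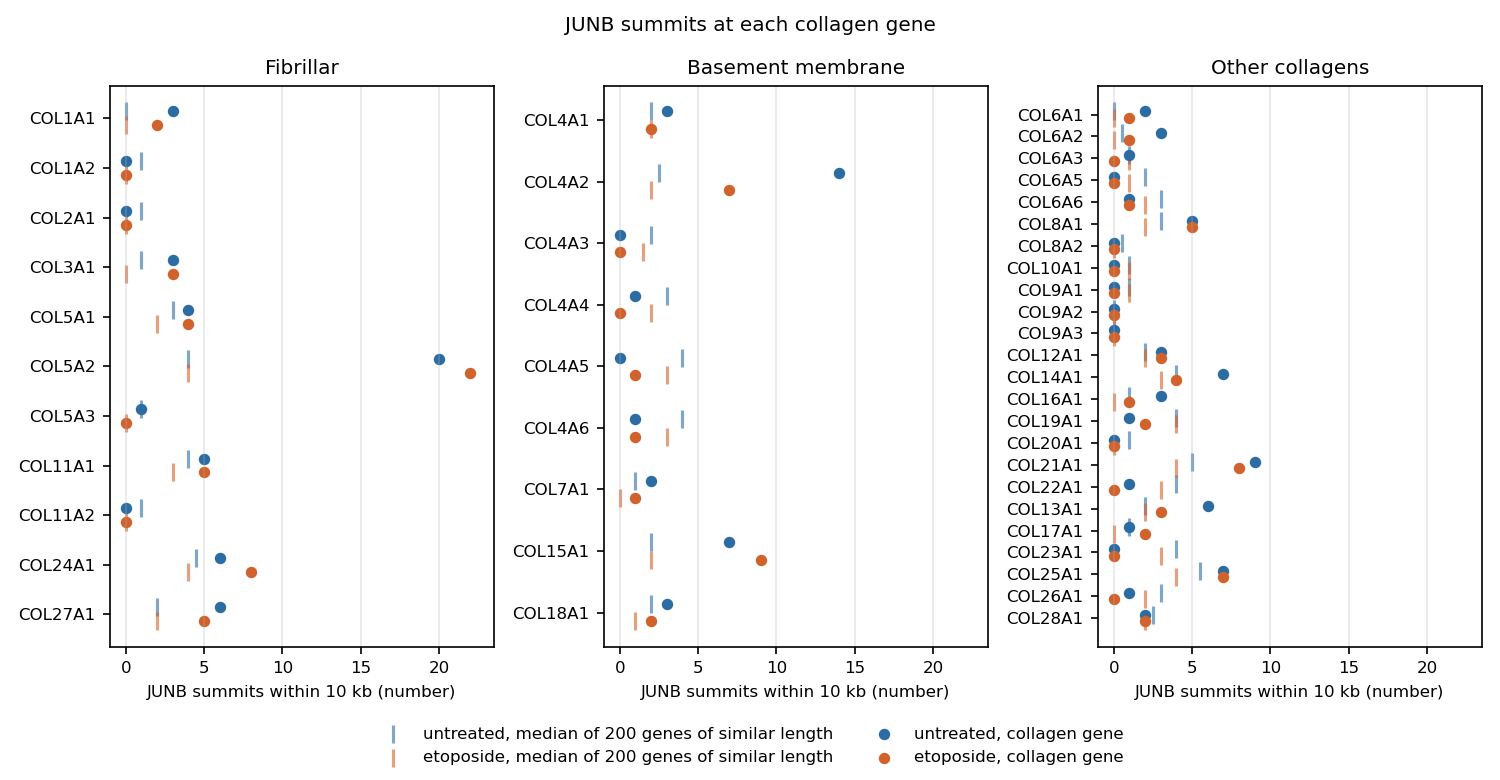
Number of JUNB summits within 10 kb (x axis) for each of the 44 collagen genes, in the untreated (blue) and etoposide (orange) library; dots are the collagen genes and vertical ticks the median of 200 genes of similar length. COL5A2, with 20 and 22 summits, stands far to the right of its ticks at 4, and many genes sit at 0.

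The fibrillar genes had the most summits for their length. Of 11, 8 had an untreated and 7 an etoposide summit, where similar-length genes gave 7.21 and 6.14. They held 48 untreated and 49 etoposide summits, beside 27.2 and 20.8 for genes of similar length. Without COL5A2 they held 28 beside 21.5 and 27 beside 16.3. The basement membrane genes had 7 of 9 in either library, beside 6.73 and 6.18, with 31 and 23 summits beside 26.8 and 20.1. The other collagens had 16 and 13 of 24, beside 16.5 and 14.7, and held fewer summits than similar-length genes, 53 beside 64.4 and 40 beside 49.3. Genes are few in each class, and these are descriptions without a test.

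**Figure D2:**
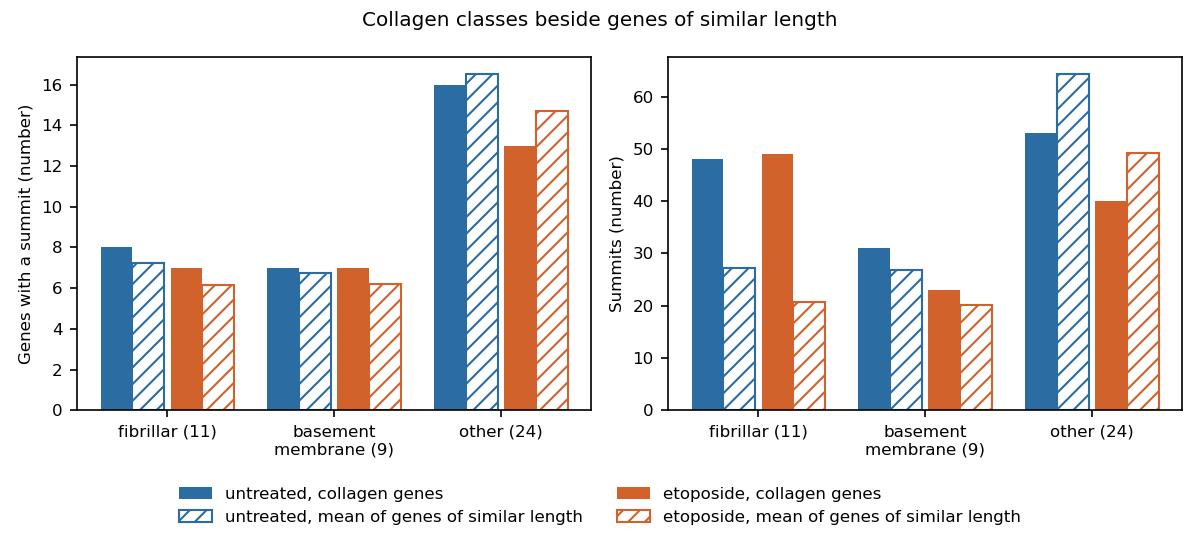
Genes with a summit (left) and number of summits (right) in the 3 collagen classes, solid bars, beside the mean of genes of similar length, hatched bars, for the untreated (blue) and etoposide (orange) library. The solid bars exceed the hatched ones most for summits at fibrillar genes, 48 against 27.2 and 49 against 20.8.

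COL5A2 codes for a chain of type V collagen, which starts fibrils and limits their width. It lies on chromosome 2 at 189031898 to 189441111 and had 20 untreated and 22 etoposide summits. The median of genes of its length was 4 in both libraries; 98.5% of them had fewer without treatment and 100% had fewer in the etoposide library. Among all 19974 genes it ranked 25 without treatment and 5 in the etoposide library by number of summits. The summits were uneven along the annotated span: 16 of 20 and 19 of 22 were in its upper 60% by coordinate. A further untreated summit lay 0.137 kb beyond its high-coordinate end. No start or strand was given for COL5A2, so where these summits lie relative to a start was not determined. The lower 40%, nearest to COL3A1, held 3 in each library, all without a counterpart.

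Of the COL5A2 summits, 12 in each list were shared, meaning that the peak overlapped a peak of the other list by at least 1 bp. The strongest untreated one, at 189276129 to 189276869, ranked 201 with 57 fragments. Its etoposide counterpart ranked 1539 with 28 fragments. At 189267733 to 189268662 the fragments were 34 untreated and 31 etoposide, and this was the strongest COL5A2 peak of the etoposide list, at rank 734. At 189261314 to 189261870 they were 28 and 8. Together the 12 shared places had 365 untreated and 222 etoposide fragments, a ratio of 0.608 (95% exact interval 0.512 to 0.721). The median ratio over all 16610 shared pairs of the genome was 0.778. The first is a ratio of sums, which weighs strong places more, and the second a median of single pairs. By these unlike measures the shared COL5A2 places stood lower, while the number of summits was 20 and 22. The 10 etoposide summits without a counterpart had 5 to 15 fragments, and the 8 untreated ones had 11 to 30.

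The neighbouring COL3A1, 19.2 kb away, makes type III collagen, the companion of type I in skin and vessels. It had 3 summits in each library, more than 89.5% and 97% of genes of its length, but all were weak, with 10 to 16 fragments without treatment and 9 to 11 in the etoposide library. For type I collagen, the main protein of bone and tendon, the 2 chains differed. COL1A1, at 50184101 to 50201631 on chromosome 17, had 3 untreated and 2 etoposide summits, more than 95.5% and 91.5% of genes of its length, none of them inside the gene. A pair of shared peaks lay 8.35 to 9.09 kb beyond its high-coordinate end. They had 29 and 30 fragments without treatment and 12 and 14 in the etoposide library, a summed ratio of 0.441 (0.267 to 0.710). The genome-wide median, of single pairs, was 0.778. An untreated peak with 21 fragments lay 5.71 kb beyond the other end, nearest to SGCA. COL1A2, on chromosome 7, had 0 summits in both libraries.

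Of the other type V chains, COL5A1 had 4 summits in each library, with 3 shared places. These had 25, 18 and 18 fragments without treatment and 18, 6 and 8 in the etoposide library. COL5A3 had a single untreated peak, with 28 fragments 1.27 kb past its start at 10009087 to 10009444 on chromosome 19. It ranked 1733 and had no etoposide counterpart, and was the strongest peak among the collagen genes bound in the untreated library alone. COL11A1, which joins type II fibrils in cartilage, had 5 summits in each library, all in the last 43.6 kb of the gene by transcription and none within 188 kb of its start. Its strongest untreated peak had 27 fragments, with 13 in the counterpart, and its strongest etoposide peaks had 21. COL24A1 and COL27A1, fibrillar chains with shorter helices, had 6 and 6 untreated and 8 and 5 etoposide summits. The 4 shared places of COL27A1 had 120 untreated and 61 etoposide fragments, a ratio of 0.508 (0.367 to 0.697) beside 0.778 genome-wide. The strongest of them had 40 and 22. Another, with 30 and 11, lay 9.65 kb beyond the gene, nearest to ORM1. At the 3 shared places of COL24A1 the fragments summed to 65 and 63, with 23 and 21 at the strongest untreated peak and 22 and 24 at the strongest etoposide peak.

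**Figure D3:**
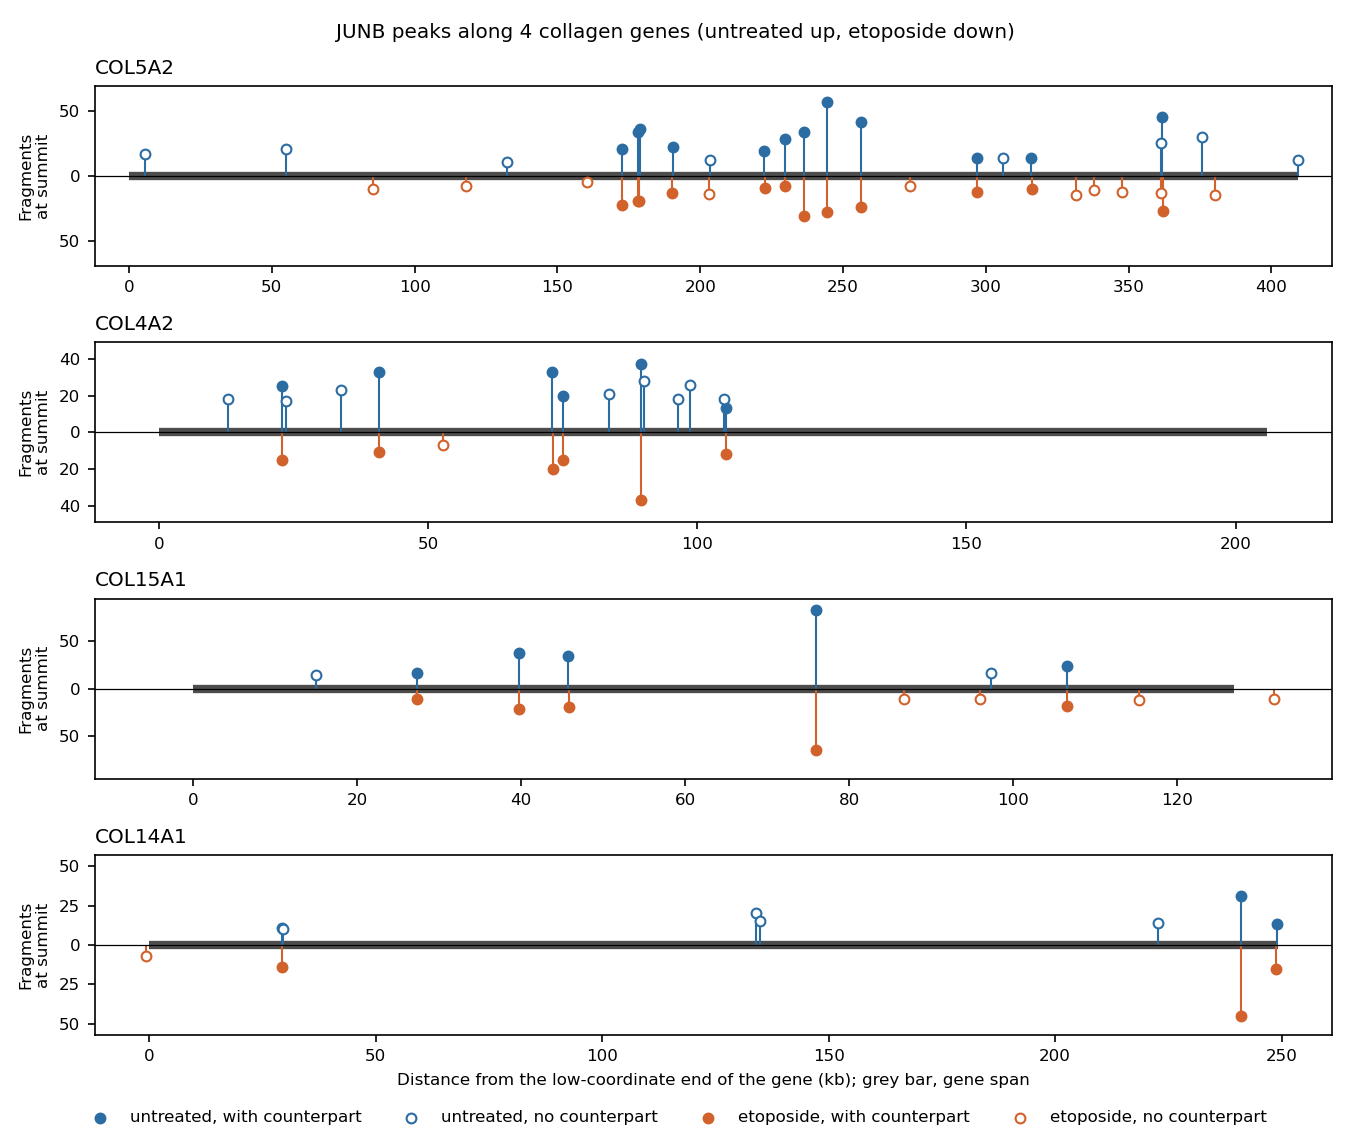
Fragments at each JUNB summit (y axis, untreated upwards in blue, etoposide downwards in orange) against distance in kb from the low-coordinate end of COL5A2, COL4A2, COL15A1 and COL14A1; the grey bar is the gene, filled points have a counterpart in the other library and open points do not. The 14 untreated summits of COL4A2 all lie in the first 3 of 5 equal parts of the gene, and COL15A1 has its tallest peak, 83 and 65 fragments, inside the gene.

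Among basement membrane genes, COL4A2 and COL15A1 carried most of the summits. COL4A2, at 110307284 to 110513209 on chromosome 13, codes for the partner of COL4A1 in the type IV network found under almost every epithelium. It had 14 untreated and 7 etoposide summits, more than 99.5% and 92% of genes of its length, whose medians were 2.5 and 2. They ran from 12.7 to 105 kb past the start, and the last 2 of 5 equal parts of the gene had 0 in both libraries. Of the 14 untreated summits 8 had no etoposide counterpart, with 17 to 28 fragments, and of the 7 etoposide summits 1 had no untreated counterpart, with 7 fragments. At the 6 shared places the fragments were 161 untreated and 110 etoposide in all, a ratio of 0.683 (0.531 to 0.876). This interval takes in 0.778, the genome-wide median of single pairs. The place 89.6 kb past the start had 37 fragments in each, while the place 40.8 kb past it had 33 and 11.

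COL4A1 starts 126 bp from COL4A2 and is read the other way. It had 3 untreated summits, of 8 to 10 fragments, and 2 etoposide summits, of 8 and 9 fragments, none of them shared. The summit nearest to the interval printed above was 12.7 kb from the start of COL4A2 without treatment and 22.8 kb in the etoposide library. The other divergent pairs of type IV genes, whose chains build the membranes of kidney, lung and ear, were nearly bare. COL4A3 had 0 summits in both libraries and COL4A4 had 1 untreated summit of 9 fragments, which also lay in RHBDD1. On X, COL4A5 had 1 etoposide summit of 10 fragments, and COL4A6 a shared peak with 10 untreated and 7 etoposide fragments. For these 4 genes the medians of similar-length genes were 2 to 4 untreated and 1.5 to 3 etoposide summits.

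COL15A1, at 98943907 to 99070787 on chromosome 9, makes a proteoglycan collagen that links basement membranes to the fibres below. It held the strongest peak of all collagen genes in both libraries. This peak, 75.9 kb past the start, had 83 untreated fragments (rank 19, 99019440 to 99020310) and 65 etoposide fragments (rank 32, 99019475 to 99020274). The ratio of 0.783 (0.557 to 1.10) was close to the genome-wide median. The gene had 7 untreated and 9 etoposide summits, more than 90% and 100% of genes of its length. The 5 shared places had 196 and 135 fragments in all, and the 4 etoposide summits without a counterpart had 11 or 12. COL18A1, the related gene that gives rise to endostatin, had 3 and 2 weak summits of at most 12 fragments.

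The beaded-filament genes of type VI collagen, which is abundant around muscle fibres and fibroblasts, had 7 untreated summits beside 8.71 for genes of similar length and 3 etoposide summits beside 6.58. Of 5 genes 4 and 3 had a summit, beside 3.23 and 2.8. COL6A1 had 2 untreated and 1 etoposide, COL6A2 had 3 and 1, COL6A3 had 1 and 0, COL6A6 had 1 and 1, and COL6A5 had 0 in both. Just 2 of the 7 untreated summits lay inside the collagen gene they were assigned to. The strongest of COL6A2, 5.78 kb before its start, was shared with 17 and 9 fragments, and that of COL6A6, inside the gene, with 16 and 13. The summit of COL6A3 had 8 fragments. The short-chain gene COL8A1, active in vessel walls and fibroblasts, had 5 summits in each library with 2 shared. A pair of its untreated peaks without a counterpart were among the stronger ones, with 31 fragments at 99658902 to 99659180 (rank 1894) and 26 at 99670076 to 99670329 on chromosome 3. The latter had an etoposide peak of 15 fragments close by, at 99670445 to 99670640, which did not overlap it. Its relatives COL8A2 and COL10A1 had 0 in both.

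FACIT collagens sit on the surface of fibres. Of 10 such genes 6 had an untreated and 5 an etoposide summit, beside 6.77 and 5.91 for genes of similar length. COL14A1, at 120124454 to 120373573 on chromosome 8, went against the general direction. Its 3 shared places had 31, 13 and 11 fragments without treatment and 45, 15 and 14 in the etoposide library. All 3 were higher in the etoposide library, and the summed ratio was 1.35 (0.936 to 1.94). This interval takes in equality but not 0.778, the genome-wide median, which is of single pairs and not of sums. The strongest, at 120365078 to 120365919, was at rank 2014 of the untreated list, and its counterpart at rank 119 of the shorter etoposide list. Its number of summits was nonetheless lower, 4 against 7. COL14A1 was singled out after its values were seen.

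COL12A1, the close relative of COL14A1, had 3 summits in each library and 2 shared places, with 38 and 25 untreated and 26 and 30 etoposide fragments. COL21A1 had 9 and 8 summits. The 5 of its untreated summits that were shared all lay in the upper part of the gene by coordinate, 279 to 314 kb from the low end of a span of 338 kb. The highest of them had 32 untreated and 17 etoposide fragments, and the next had 26 in each. COL16A1 had a shared peak 2.60 kb past its start with 25 and 18 fragments. Its other untreated summits, of 14 and 13 fragments, lay outside the gene, nearest to PEF1. COL19A1 had 1 and 2 summits of 10 to 13 fragments, none shared. COL22A1, known from the junction of muscle and tendon, had a single untreated summit of 9 fragments.

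Of the transmembrane collagens, COL17A1, a hemidesmosome protein of epithelia, had a strong shared peak 8.14 kb before its start, at 104093890 to 104094150 on chromosome 10, with 36 untreated (rank 1029) and 34 etoposide fragments (rank 352). COL13A1 had 6 and 3 summits, of which the strongest, 62.5 kb past the start, was shared with 27 and 20 fragments. COL25A1, first found in the plaques of Alzheimer disease, had 7 summits in each list. Its 3 shared places had 28, 30 and 23 untreated and 12, 34 and 16 etoposide fragments, so that the place highest without treatment was also the highest after it. COL23A1 had 0 in both, where the medians of genes of its length were 4 and 3. COL28A1 had 2 shared peaks, 23 and 22 fragments against 13 and 9, and COL26A1 a single untreated summit of 6 fragments.

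No summit in either library was found at 12 genes (45.8% of all protein-coding genes, not matched for length, had none): COL1A2, COL2A1, COL11A2, COL4A3, COL6A5, COL8A2, COL10A1, COL9A1, COL9A2, COL9A3, COL20A1 and COL23A1. The 7 genes of the cartilage collagens II, IX, X and XI, grouped after their values were seen, included 6 of these, and COL11A1 was the exception with 5 summits in each library. Similar-length genes would give 4.17 of 7 with an untreated and 3.39 with an etoposide summit. A place without a listed peak may still have signal under the threshold of the lists.

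Between the conditions, 26 genes had summits in both libraries (34.3% of all genes). The shares of all genes in this paragraph are not matched for length, and collagen genes are long. Matched for length, the counts for single libraries were 31 beside 30.5 untreated and 27 beside 27.0 etoposide. Another 5 had them in the untreated library alone (15.3% of all genes): COL5A3, COL4A4, COL6A3, COL22A1 and COL26A1. In the etoposide library alone there was 1, COL4A5 (4.61% of all genes). Fewer etoposide than untreated summits were found at 17 genes (30.2% of all genes) and more at 6 (9.61% of all genes), which were COL5A2, COL24A1, COL4A5, COL15A1, COL19A1 and COL17A1. Of these 6, COL5A2, COL24A1 and COL15A1 gained 2 summits each and the others 1.

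Of the untreated collagen summits 69 of 132 were shared, 52.3% (95% Wilson interval 43.8% to 60.6%), where 51.0% of all untreated peaks were. Of the etoposide summits 69 of 112 were shared, 61.6% (52.4% to 70.1%), where 64.8% of all etoposide peaks were. Both shares were near those of the whole lists. Shared collagen peaks were the stronger ones, with medians of 23 fragments against 13 for unshared ones without treatment and 15 against 11 in the etoposide library. In the whole lists these medians were 19 against 12 and 14 against 10.

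Fragments at the 69 untreated summits with a counterpart were compared with those of the counterpart. The 69 pairs hold 68 different etoposide peaks, since 1 of COL11A1 overlapped a pair of untreated peaks. The median ratio of etoposide to untreated fragments was 0.700 (quartiles 0.529 and 0.875), beside 0.778 (0.621 and 1) over all 16610 shared pairs. Etoposide had at most 1/1.5 of the untreated fragments at 32 of the 69 pairs (33.8% of all pairs), and at least 1.5 times as many at 0 (4.03% of all pairs). It was above the untreated value at 7 pairs, 10.1%, where 20.8% of all pairs were. Those 7 were the 3 places of COL14A1 and 1 each of COL5A2, COL24A1, COL25A1 and COL12A1. The lowest local background in the lists was 0.482 fragments untreated and 0.377 etoposide, and untreated collagen peaks with a counterpart had more fragments than all such peaks, as given above. The part of either in these ratios was not tested.

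**Figure D4:**
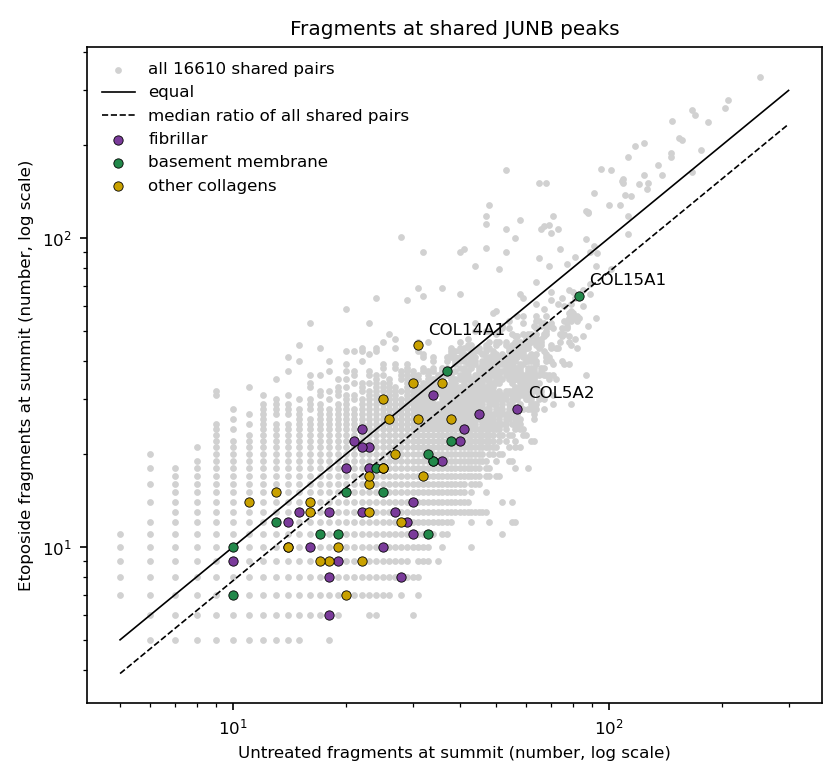
Etoposide against untreated fragments at shared peaks, both axes on log scales; grey points are all 16610 shared pairs and coloured points the 69 pairs at collagen genes by class, with lines for equal fragments and for the median ratio of 0.778. Most coloured points lie under the line of equality; the labelled COL14A1 peak, 31 and 45 fragments, lies above it.

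Collagen needs enzymes and helper proteins to hydroxylate, fold, export, trim and cross-link it. Of 33 such genes 23 had an untreated and 22 an etoposide summit, 69.7% (52.7% to 82.6%) and 66.7% (49.6% to 80.2%), beside 56.4% and 45.4% of genes of their lengths. Summits were found in both libraries at 21 (34.3% of all genes). In the untreated library alone they were found at 2, LOX and BMP1 (15.3% of all genes). In the etoposide library alone there was 1, P3H1 (4.61% of all genes). These shares of all genes are not matched for length. The 5 genes with the most untreated summits were P3H2, a prolyl 3-hydroxylase, with 10 untreated and 9 etoposide summits of up to 64 and 40 fragments; LOXL2, a cross-linking oxidase, with 8 and 4; PLOD2, the lysyl hydroxylase of the telopeptides, with 7 and 4; ADAMTS3, a procollagen N-proteinase, with 5 and 2; and COLGALT2, a collagen galactosyltransferase, with 4 and 1. The cross-linking enzyme LOX had 3 untreated summits, of at most 18 fragments, and 0 in the etoposide library.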

How the data were processed

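Bowtie2, MACS2 and the builds hg38 and mm10 are named in the submitters' processing notes, without settings. Human contig names place the lists on hg38. In the authors' deposited peak lists, called per library, the score is 10 times -log10 q, the fold is the ratio of summit signal to local background, and significance is given as -log10 p and -log10 q. These deposited values were used only to rank and describe peaks within a list. Fragments at a summit (k) came from a fold of (k + 1)/(b + 1), b being the local background, and the Poisson tail above k; 100% of peaks gave a whole number within 0.001 of the deposited -log10 p. The lists gave 33491 untreated and 26590 etoposide peaks, and those on chromosomes 1 to 22 and X were used. Code was tested on simulated data. The step from fragments to a ratio assumes this reading of the caller; exact and Wilson intervals cover counting error only.

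No test was run, since each condition had 1 library. The collagen genes, their classes and the 33 processing genes were chosen with earlier results of these data known. All collagen genes are accounted for; peak values are given for the strongest peaks of most genes that have any, genes bound in 1 library alone and those with the most summits. Python 3.11.15, pandas 2.3.3 and scipy 1.17.1 were used. Alternatives were lists with -log10 q of at least 5 or the 10000 strongest peaks, and windows of 0 and 50 kb. Others were overlap of 50% of both peaks, and 100 or 500 genes of similar length. Type IV chains alone and each summit counted once were further alternatives.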

Additional observations from a re-analysis of the deposited data

How the results depend on the processing

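Of 81 alternative values, 69 stayed within 1.5 times the reported count or inside the counting interval of the reported share or ratio. These include each summit counted once over all collagen genes. That setting could not change a value, since no summit lay in the 10 kb windows of different collagen genes. With the 10000 strongest peaks of each library, untreated summits at collagen genes were 61 (similar-length genes 35.7) and etoposide summits 43 (33.7), basement membrane genes with a summit were 3 in each library, processing genes with a summit 9 untreated and 12 etoposide, and the shared share of etoposide summits 74.4%. Of all genes, 22.1% had an untreated and 20.4% an etoposide summit with those strongest peaks, not matched for length. Overlap of at least 50% of both peaks gave shared shares of 32.6% untreated and 38.4% etoposide. Type IV chains alone gave 4 genes with a summit in each library, of 6 in place of 9. Genes of their lengths gave 4.785 untreated and 4.505 etoposide. Within the gene span alone, 14 processing genes had an untreated summit, where 33.4% of all genes did. The list of strongest peaks and the type IV chains hold fewer peaks or genes by construction. COL5A2 had more summits than at least 98% of similar-length genes under each list and window. The ratio of etoposide to untreated summits ranged from 0.705 to 0.870. With -log10 q of at least 5 it was 0.742 (0.564 to 0.975). That interval left out 1, as the reported interval did not. Genes of similar length also held fewer etoposide than untreated summits in that setting, 75.5 beside 104.0. Leaving out 1 therefore does not set collagen genes apart from them. No paired analysis was possible because each condition had 1 library and the labels give no replicate numbers. Depth limits weak places: a peak of 5 fragments was the weakest listed in either library.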
